A study of Mus musculus with 2 samples.

Results

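The genes of the proteasome, its regulators and its assembly factors were examined for binding of the chromatin remodeler SRCAP at their promoters in mouse embryonic stem cells. Members were the protein-coding genes of GENCODE mouse release 21 whose symbol is Psma, Psmb, Psmc, Psmd, Psme, Psmf or Psmg followed by digits, which gave 48 of 21938 protein-coding genes. The rule itself uses symbols and no measured value, although it was set with earlier results of these data known. By role, 19 members encode the core particle, 17 the regulatory particle, 5 activators or an inhibitor, and 7 assembly factors.

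SRCAP is the ATPase of a chromatin remodeler that places the histone variant H2A.Z into nucleosomes in exchange for H2A. Both samples came from SYAT, 1 CGR8 mouse embryonic stem cell (mESC) line in which YPet, a yellow fluorescent protein, and the auxin-inducible degron AID were added to SRCAP at both alleles, and which stably expresses the receptor OsTir1. The cells were in Serum LIF medium and were kept with Auxinole, which prevents basal degradation of the tagged protein, at 200 nM per the labels (the methods of the study give this figure in µM), and CUT&Tag located SRCAP-YPet by means of an antibody against GFP, which binds YPet and directs a transposase to the protein, using 200000 cells and 10000 Drosophila nuclei per sample and a transposition of 1 h. The 2 samples are replicates of this 1 condition, so there was no comparison between conditions. The labels do not say whether they were separate cultures, while the reporting form of the study states for its experiments in general that replicates were grown and treated separately.

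The data are 1 list of peaks per replicate, with 6158 peaks in replicate 1 and 12958 in replicate 2. Each peak has a score, which was read as 10 times the −log10 of the peak caller's q-value cut to a whole number and had a minimum of 13 in both lists. The number of reads behind each list is unknown, so peak numbers and scores are given side by side and no difference between replicates is read from them. A gene was counted as bound when a peak overlapped, by at least 1 bp, a promoter window that reached 1000 bp before and 500 bp past any of its annotated transcription start sites (TSS). Peak lists hold no expression, so markers of the cells could only be counted in the same way. Of 8 genes that mark pluripotent cells, replicate 1 held a peak at 1, replicate 2 at 3, and both at 1, Zfp42. Of 4 fibroblast feeder markers, 3 had a peak in replicate 2 alone, and of 4 endoderm markers, 1 had a peak in replicate 1 alone. The corresponding shares of all protein-coding genes were 15.7% and 30.4% for the single lists and 12.0% for both, and lists this short do not identify the cells.

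The proteasome degrades proteins that carry chains of ubiquitin. Its barrel-shaped core particle is built of rings of alpha subunits, which gate the entry, around rings of beta subunits, some of which cut the substrate. The regulatory particle caps the core: the ATPases of its base unfold the substrate, and its lid removes ubiquitin. Activators open the core without the regulatory particle, and dedicated chaperones build both parts. Most subunits are made in every cell, while a few core subunits are induced by interferon or restricted to the thymus or testis.

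Promoter sequences of a few members are shown first, because the peaks described next lie on or beside them. For the core particle, the regulatory particle and the activators, the member shown is the one whose lower score of both replicates was highest, Psma3, Psmd1 and Psme2. No assembly factor was bound in both replicates. Psma4 is shown as a core member with no promoter peak in either list, and Psmb5, chosen after its values were seen, for its matches to the core motif of the transcription factor YY1. Each run covers 250 bases before and 50 bases from 1 representative TSS, in mm10, 5′ to 3′ on the gene's strand. Capitals mark matches to the motifs listed with the sequence features. The runs lie at chr12:70974371-70974670 (Psma3, plus strand), chr1:86064369-86064668 (Psmd1, plus), chr14:55591038-55591337 (Psme2, minus), chr9:54950540-54950839 (Psma4, plus) and chr14:54617973-54618272 (Psmb5, minus).
Psma3: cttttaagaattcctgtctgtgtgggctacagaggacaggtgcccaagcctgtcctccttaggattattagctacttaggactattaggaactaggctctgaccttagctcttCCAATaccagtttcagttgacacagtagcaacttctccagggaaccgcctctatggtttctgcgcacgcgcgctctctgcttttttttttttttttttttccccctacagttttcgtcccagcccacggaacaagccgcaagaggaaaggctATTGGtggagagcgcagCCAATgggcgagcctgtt
Psmd1: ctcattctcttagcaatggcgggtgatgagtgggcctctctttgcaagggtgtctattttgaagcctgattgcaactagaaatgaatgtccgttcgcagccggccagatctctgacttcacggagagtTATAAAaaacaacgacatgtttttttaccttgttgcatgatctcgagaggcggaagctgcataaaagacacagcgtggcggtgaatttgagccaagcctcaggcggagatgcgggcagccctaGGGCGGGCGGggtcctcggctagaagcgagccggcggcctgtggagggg
Psme2: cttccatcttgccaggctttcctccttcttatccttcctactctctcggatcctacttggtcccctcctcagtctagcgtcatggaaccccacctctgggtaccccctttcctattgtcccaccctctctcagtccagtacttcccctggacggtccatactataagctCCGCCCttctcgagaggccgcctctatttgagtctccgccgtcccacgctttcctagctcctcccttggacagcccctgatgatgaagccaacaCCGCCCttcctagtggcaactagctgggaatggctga
Psma4: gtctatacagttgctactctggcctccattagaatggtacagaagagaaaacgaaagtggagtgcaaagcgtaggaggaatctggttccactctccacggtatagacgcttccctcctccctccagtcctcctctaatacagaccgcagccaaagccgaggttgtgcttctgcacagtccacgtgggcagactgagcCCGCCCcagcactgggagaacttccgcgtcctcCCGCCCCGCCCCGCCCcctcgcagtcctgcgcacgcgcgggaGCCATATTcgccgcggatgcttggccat
Psmb5: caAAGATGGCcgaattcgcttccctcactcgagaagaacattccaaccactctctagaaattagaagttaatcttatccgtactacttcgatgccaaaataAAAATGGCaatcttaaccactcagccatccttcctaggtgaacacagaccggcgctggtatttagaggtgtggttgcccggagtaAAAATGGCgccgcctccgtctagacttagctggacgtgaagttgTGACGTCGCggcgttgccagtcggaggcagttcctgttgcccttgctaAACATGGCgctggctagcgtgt
The peaks covered different amounts of these runs. At Psmd1, the peak of replicate 1 covered 273 of the 300 bases and that of replicate 2 covered all 300. At Psmb5, the peaks covered 258 and 212 bases. At Psme2, they covered 166 and 240 bases. At Psma3, the peak of replicate 2 covered 212 bases and that of replicate 1 none, because it began 53 bp downstream of the representative TSS. The Psma3 run holds 3 CCAAT boxes, 1 upstream of the TSS and 2 just downstream of it, and a run of T. Psma4, with no peak, had the highest GC content of these 5, at 60%, against 49.3% for Psma3.

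Promoter peaks were present at 12 of the 48 members in replicate 1 (25%) and at 20 in replicate 2 (41.7%). Among all protein-coding genes the shares were 15.7% and 30.4%. The 9 members bound in both replicates, 18.8% of the 48, were Psma1, Psma3, Psma5, Psmb1, Psmb2, Psmb5, Psmd1, Psmd7 and Psme2, beside 12.0% of all genes. A peak in at least 1 list was found at 23 members, beside 34.0% of all genes, and 25 members had none. Of the members bound in replicate 1, 75% were also bound in replicate 2, and of those bound in replicate 2, 45% were also bound in replicate 1. Across all genes these shares were 76.7% and 39.7%. No test was made of the difference between members and other genes, and the members differ from all genes in base composition and number of TSS, by which the shares are split among the sequence features.

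**Figure D1:**
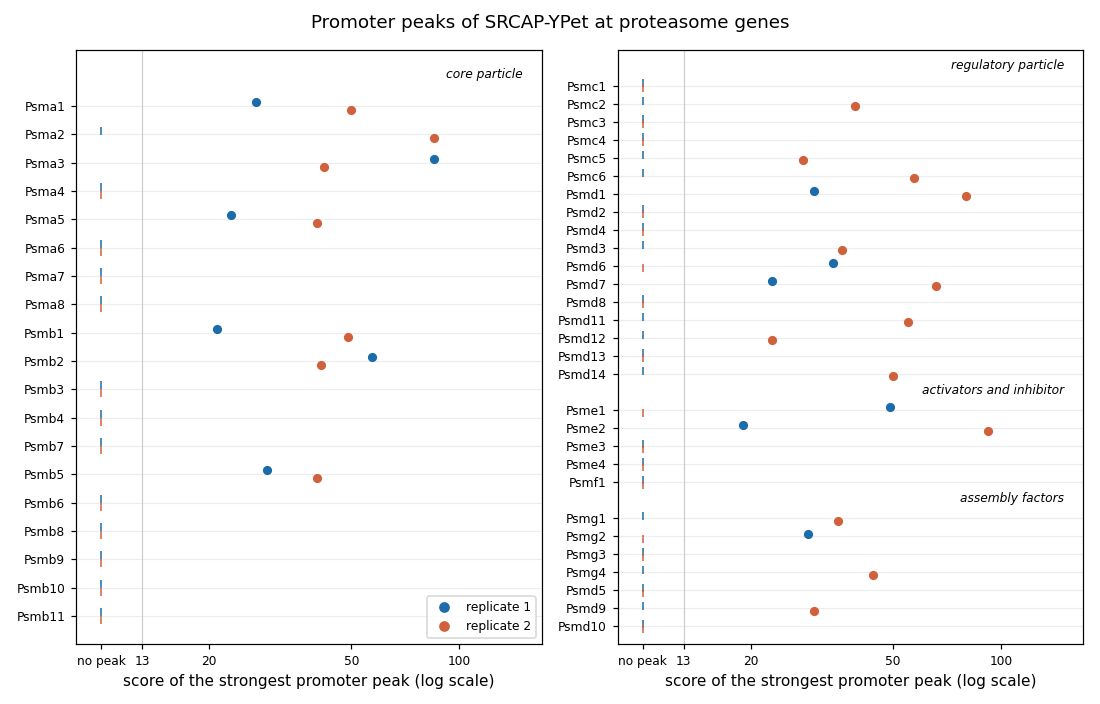
Score of the strongest promoter peak (x axis, log scale) of each of the 48 members (y axis), with replicate 1 in blue and replicate 2 in orange, and a tick at "no peak" where a list has none. Points of both colours appear at 9 members, 6 of them in the core particle, and scores run from 19 to 92.

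Of 19 core genes, 6 were bound in replicate 1 (31.6%, all genes 15.7%), 7 in replicate 2 (36.8%, all genes 30.4%) and 6 in both (31.6%, all genes 12.0%). Where a peak had to contain a TSS, 2 core genes were bound in both (all genes 6.97%), and with a score of at least 50, 0 were (all genes 2.99%). No test of the difference between classes was made. Every core gene bound in replicate 1 was also bound in replicate 2. The 3 alpha genes bound in both were Psma1, Psma3 and Psma5, of 7, and the 3 beta genes were Psmb1, Psmb2 and Psmb5, of 7. Psma2, an alpha subunit, was bound in replicate 2 only. The 5 genes of tissue-specific or inducible core subunits had a promoter peak in neither list. They were the testis subunit Psma8, the immunoproteasome subunits Psmb8, Psmb9 and Psmb10 and the thymus subunit Psmb11. Of all genes, 34.0% had a peak in either list, and 5 genes are too few to be set apart from that share.

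Psma3 had the highest score of the members in replicate 1. Its peak there scored 85 (chr12:70974674-70975072, 399 bp) and stood at rank 235 of the 3445 bound genes. In replicate 2 its peak scored 42 (chr12:70974459-70974938, 480 bp) and stood at rank 3542 of 6660. The peak of replicate 2 covered the representative TSS, that of replicate 1 a later annotated TSS, and they shared 265 bp, with the midpoint in an intron in replicate 1 and in a UTR exon in replicate 2. The shared bases had a GC content of 73.2% and 32 CpG dinucleotides, and reached from 53 to 317 bp downstream of the representative TSS.

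Psmb2, a beta subunit, had peaks centred upstream of its start, and that of replicate 2 also covered the TSS. The peak of replicate 1 scored 57 (chr4:126677269-126677542, 274 bp) and that of replicate 2 scored 41 (chr4:126677269-126677695, 427 bp). The peaks had the same left border, so the whole peak of replicate 1 lay within that of replicate 2, and their midpoints were 225 and 148 bp upstream of the TSS. The shared stretch lies outside the gene, in mm10 at chr4:126677269-126677542 on the plus strand, from position -361 to position -88 with the TSS at 0. It is printed because it is the whole of a peak found in both lists and differs in base composition from the shared stretch of Psma3.
Psmb2 shared stretch: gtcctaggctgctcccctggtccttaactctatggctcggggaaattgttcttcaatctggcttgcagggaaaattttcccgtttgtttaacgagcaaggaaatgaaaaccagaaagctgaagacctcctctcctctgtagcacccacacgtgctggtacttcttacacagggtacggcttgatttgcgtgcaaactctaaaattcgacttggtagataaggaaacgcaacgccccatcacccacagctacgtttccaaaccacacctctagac
None of the motifs searched was found in it. Its GC content was 48.5% with 10 CpG dinucleotides.

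Psmb5, which encodes the chymotrypsin-like catalytic subunit, had peaks centred just upstream of its TSS in both lists, and that of replicate 1 also covered the TSS. Its peaks scored 29 in replicate 1 (chr14:54618001-54618258, 258 bp) and 40 in replicate 2 (chr14:54618061-54618312, 252 bp), with midpoints 107 and 164 bp upstream. The peaks shared 198 bp. Psmb11, the thymus subunit gene, starts nearby, and these same 2 peaks were the nearest to Psmb11, 3175 and 3121 bp from its closest TSS.

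The other core genes bound in both lists had their peaks at or downstream of the TSS. Psma1 scored 27 in replicate 1 (chr7:114275689-114276003, 315 bp) and 50 in replicate 2 (chr7:114275877-114276496, 620 bp). Its peaks overlapped by 127 bp and their midpoints were 340 bp apart, the largest shift of the 9 members. Psmb1 scored 21 (chr17:15498063-15498354, 292 bp) and 49 (chr17:15498053-15498359, 307 bp), and its midpoints, in a coding exon, were 2 bp apart. Psma5 scored 23 (chr3:108257201-108257519, 319 bp) and 40 (chr3:108257017-108257545, 529 bp), with midpoints 434 and 355 bp downstream of the TSS. Neither peak of Psma5 contained a TSS of the gene, and both also lay in the promoter window of 1700010K24Rik. Psma2 scored 85 in replicate 2 (chr13:14613024-14613523, 500 bp). That peak also lay in the window of Mrpl32, a mitochondrial ribosomal protein gene that starts 75 bp away on the other strand.

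The ring genes with a promoter peak in neither list were the alpha genes Psma4, Psma6 and Psma7 and the beta genes Psmb3, Psmb4, Psmb6 and Psmb7. Their nearest peak lay between 5279 bp (Psmb6) and 405101 bp (Psma7) away in replicate 1, and between 12681 bp (Psma7) and 142344 bp (Psmb7) in replicate 2. Psmb6 and Psmb7 encode the other catalytic subunits of the constitutive core, so of the catalytic beta genes Psmb5 was the one with promoter peaks. At the immunoproteasome genes, the nearest peak of replicate 1 was 3602 bp from Psmb8 and the same peak was 15192 bp from Psmb9.

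**Figure D2:**
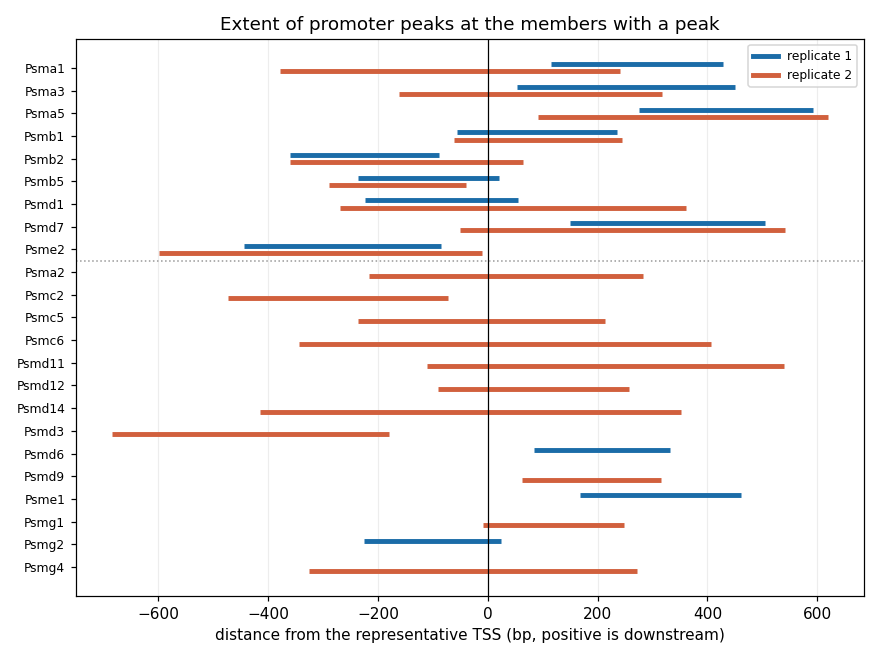
Extent of the strongest promoter peak of each bound member, in bp from its representative TSS (x axis, positive is downstream), with replicate 1 in blue and replicate 2 in orange. The 9 members bound in both lists stand above the dotted line, among them Psmb2 with peaks that share a left border and Psma5 with both peaks downstream of the TSS.

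Of the regulatory particle genes with a promoter peak, most were bound in replicate 2 alone, as were 4017 of the 7462 genes bound in at least 1 list overall. Replicate 1 held peaks at 3 of 17 genes (17.6%), replicate 2 at 9 (52.9%), and 2 were bound in both (11.8%), beside 15.7%, 30.4% and 12.0% of all genes, so the shares for replicate 1 and for both were near the background. In the base, which holds the ATPases and the large scaffold subunits, 1 of 9 genes was bound in replicate 1, 4 in replicate 2 and 1 in both. In the lid, which holds the deubiquitinase, 2 of 8 genes were bound in replicate 1, 5 in replicate 2 and 1 in both. Of the genes bound in replicate 2, 22.2% were bound in replicate 1, beside 85.7% in the core and 39.7% across all genes. Replicate 1 held fewer peaks at unknown depth, and the part of this in the difference between classes was not tested.

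Psmd1, a scaffold subunit of the base, was bound over its TSS in both lists. The peak of replicate 1 scored 30 (chr1:86064396-86064674, 279 bp) and that of replicate 2 scored 80 (chr1:86064350-86064980, 631 bp). The first lay wholly within the second, and both contained a TSS. Psmd7, a lid subunit and partner of the deubiquitinase, scored 23 in replicate 1 (chr8:107587959-107588315, 357 bp) and 66 in replicate 2 (chr8:107587923-107588515, 593 bp). Its peaks were centred 321 and 239 bp downstream of the nearest TSS, and again the first lay within the second.

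Of the 6 ATPase genes, 3 had a promoter peak in replicate 2 (all genes 30.4%) and 0 in replicate 1 (all genes 15.7%), and in so few genes these counts set the ATPase genes apart from neither share. In replicate 2, Psmc6 scored 57 (chr14:45329444-45330195, 752 bp), Psmc2 scored 39 (chr5:21784810-21785211, 402 bp) and Psmc5 scored 28 (chr11:106255917-106256367, 451 bp). The peaks of Psmc2 and Psmc5 also lay in the windows of Dnajc2 and Ftsj3, which start 32 and 75 bp away on the other strand, so a peak there cannot be given to either gene alone. Psmc1, Psmc3 and Psmc4 had none.

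Among lid genes bound in replicate 2 alone, Psmd14, the deubiquitinase of the lid, scored 50 (chr2:61711279-61712046, 768 bp) and had the widest peak of all members. Psmd11 scored 55 (chr11:80428512-80429162, 651 bp), Psmd3 scored 36 (chr11:98681869-98682374, 506 bp) and Psmd12 scored 23 (chr11:107479393-107479741, 349 bp). The peak of Psmd3 was centred 433 bp upstream of its TSS, the farthest upstream of the member peaks. Psmd6 was the reverse case, with a score of 34 in replicate 1 (chr14:14120653-14120899, 247 bp) and the nearest peak of replicate 2 at a distance of 53500 bp. Psmd8 and Psmd13 of the lid, the scaffold gene Psmd2 and the ubiquitin receptor gene Psmd4 had none, with the nearest peaks between 12784 bp (Psmd8, replicate 2) and 59971 bp (Psmd13, replicate 1) away.

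Of the 5 genes of activators and the inhibitor, 2 were bound in replicate 1 (40%), 1 in replicate 2 (20%) and 1 in both (20%), beside 15.7%, 30.4% and 12.0% of all genes, and each share rests on 1 or 2 genes. Those bound were Psme1 and Psme2, which lie near each other on chromosome 14 and encode both subunits of the interferon-inducible activator PA28. Psme2 scored 19 in replicate 1 (chr14:55591172-55591531, 360 bp) and 92 in replicate 2 (chr14:55591098-55591686, 589 bp). The first is the lowest score of a member's promoter peak in either list and the second the highest. Both peaks were centred upstream of Psme2, by 238 and 279 bp, and also lay in the promoter window of Rnf31, a ubiquitin ligase gene on the other strand whose start is 595 bp away. Psme1 scored 49 in replicate 1 (chr14:55578528-55578822, 295 bp), and its nearest peak in replicate 2 was 4616 bp away. The activator genes Psme3 and Psme4 and the inhibitor gene Psmf1 had no promoter peak in either list.

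Of the 7 assembly factor genes, 1 was bound in replicate 1 (14.3%), 3 in replicate 2 (42.9%) and 0 in both, beside 15.7%, 30.4% and 12.0% of all genes, and with 7 genes these counts are near the background. The chaperones of the core were Psmg2, which scored 29 in replicate 1, and Psmg1 and Psmg4, which scored 35 (chr16:95990712-95990969) and 44 (chr13:34162639-34163235) in replicate 2. The peak of Psmg2 also lay in the window of Cep76, which starts 263 bp away on the other strand. Psmd9, a chaperone of the base, scored 30 in replicate 2 (chr5:123228253-123228506). Psmg3 and the base chaperones Psmd5 and Psmd10 had none, and Psmd10, on the X chromosome, had the most distant nearest peaks of these, 2707733 bp away in replicate 1 and 413463 bp in replicate 2.

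**Figure D3:**
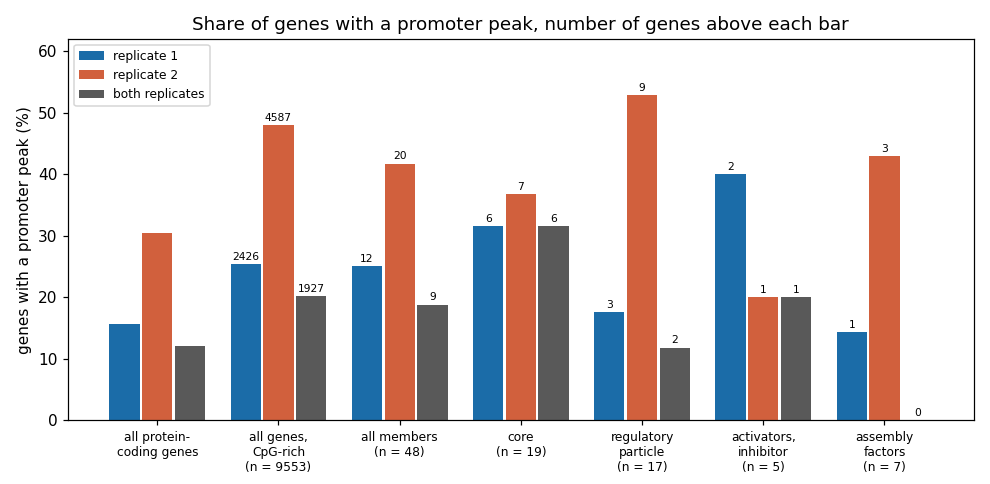
Percentage of genes with a promoter peak in replicate 1 (blue), replicate 2 (orange) and both (grey), for all protein-coding genes, all genes with a CpG-rich promoter, all members and the 4 classes of members, with the number of genes above each bar outside the first group. The regulatory particle has the highest bar for replicate 2 (52.9%) and the core the highest for both (31.6%, 6 genes, of which 2 remain where a peak must contain a TSS), and the bars of the smaller classes rest on 5 and 7 genes.

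The 31 genes for constitutive subunits of the core and regulatory particle gave 9 in replicate 1 (29%), 16 in replicate 2 (51.6%) and 8 in both (25.8%), beside 15.7%, 30.4% and 12.0% of all genes, with no test. Of the 7 inducible or tissue-specific genes, which include Psme1 and Psme2, 2 were bound in replicate 1, 1 in replicate 2 and 1 in both, all of them activator genes.

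The scores of the members were not high within either list. The median score of the strongest promoter peak was 29 over the 12 bound members of replicate 1, against 36 over all bound genes, and 43 over the 20 bound members of replicate 2, against 44. A score of at least 50 was reached by 2 of 12 members in replicate 1 (16.7%, all bound genes 26.8%) and by 8 of 20 in replicate 2 (40%, all bound genes 43%). No member reached it in both lists, beside 2.99% of all protein-coding genes. Over the 9 members bound in both lists, Spearman's rho between the scores was -0.357, and over all 2643 such genes it was 0.396, given as a description since the lists differ in length and possibly depth.

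Only peaks that overlap a promoter window were counted, so closeness to a TSS follows largely from that rule. Midpoints of member peaks were a median of 147 bp from the nearest TSS in replicate 1 and 80 bp in replicate 2. Over all bound genes the medians were 135 and 136 bp. A TSS lay inside the peak at 6 of 12 members in replicate 1, against 61.6% of all bound genes, and at 16 of 20 in replicate 2, against 66.8%. Median peak width was 293.5 and 503 bp, against 356 and 421 bp. Midpoints fell upstream of the gene at 4 members in replicate 1 and 9 in replicate 2, in a coding exon at 2 and 4, in a UTR exon at 0 and 5, in another exon at 3 and 1, and in an intron at 3 and 1. At 10 of 12 and 17 of 20 members the peak overlapped an exon of the gene.

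The promoters of the members were richer in CpG than those of most genes. A promoter was called CpG-rich when the 300 bases at its TSS had a GC content above 50% and an observed over expected CpG above 0.6. This held for 36 of 48 members (75%, 95% Wilson binomial interval 61.2 to 85.1%) and for 43.5% of all protein-coding genes. Among all 9553 genes with a CpG-rich promoter, 25.4% were bound in replicate 1, 48% in replicate 2 and 20.2% in both. Among the 36 CpG-rich members the shares were 25%, 44.4% and 19.4%. The CpG-rich members thus lay close to, or slightly below, all genes with such promoters. Among the 12 other members, 25%, 33.3% and 16.7% were bound, beside 8.23%, 16.7% and 5.78% of all other genes.

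**Figure D4:**
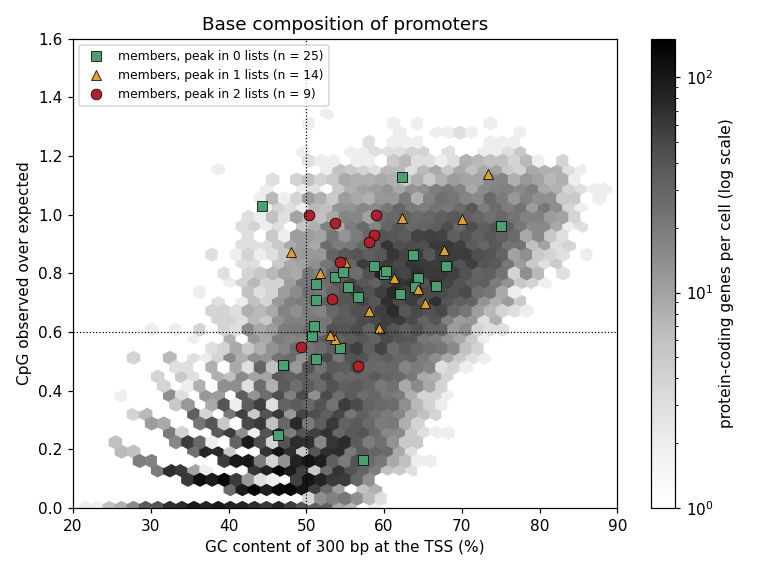
GC content (x axis, %) and observed over expected CpG (y axis) of the 300 bases at the TSS, with all protein-coding genes as grey cells (darker for more genes, log scale) and the members as squares (no peak, n = 25), triangles (peak in 1 list, n = 14) and circles (peak in 2 lists, n = 9). Dotted lines mark the limits of CpG-rich promoters, and the 3 kinds of member overlap, with GC contents of 49.3 to 59% for the circles and 44.3 to 75% for the squares.

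Base composition overlapped between bound and unbound members. The share of CpG-rich promoters was 77.8% among the 9 members bound in both lists and 72% among the 25 bound in neither, while across all genes it was 72.9% and 30.9%. The median GC content was 54.3% for the 9 and 56.7% for the 25. Psmb10, an immunoproteasome gene, had a GC content of 46.3% and an observed over expected CpG of 0.249.

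A divergent partner, another protein-coding TSS on the other strand within 1000 bp upstream, was found at 12 members (25%) and at 11% of all genes. The partner could lie by any annotated TSS of the member. Of these 12, 4 were bound in replicate 1, 6 in replicate 2 and 3 in both. Of the latter, the peaks of Psme2 also lay in the window of the partner, whereas those of Psmb1 and Psmd1 lay outside the windows of their partners Tbp and Htr2b, which start near another TSS of each gene. Across all divergent genes the shares were 30.2%, 55.8% and 25.6%, and the members gave 33.3%, 50% and 25%. Psmb9, which shares its promoter with the peptide transporter gene Tap1 38 bp away, had no peak in either list. Members had a median of 5 annotated TSS positions, against 3 for all genes, and so wider windows in total (median 3294 against 3002 bp). Split by this number, the members stood on both sides of all genes. With 1 or 2 TSS, 30% of 10 members were bound in replicate 1, 70% in replicate 2 and 30% in both, beside 8.1%, 15.8% and 5.7% of all such genes. With 3 to 5 TSS, 23.5%, 35.3% and 17.6% of 17 members were bound, beside 17.9%, 33.8% and 13.8%. With 6 or more TSS, the shares were 23.8%, 33.3% and 14.3% of 21 members, beside 24.4%, 48% and 19.4%.

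Motifs were searched on both strands in the 300 bases at each TSS. The core motif of YY1 (AANATGGC) was found at 9 members (18.8%), beside 6.38% of all promoters and 8.87% of CpG-rich ones. These were Psma2, Psma4, Psmb1, Psmb5, Psmb6, Psmc5, Psmd7, Psmd8 and Psmd11. They included 3 of the 9 members bound in both lists, Psmb1, Psmb5 and Psmd7. They also included 3 of the 25 bound in neither, Psma4, Psmb6 and Psmd8. Psmb5 has 4 matches in the run printed above, starting at positions -248, -149, -64 and 28 from its TSS at 0. The core motif of ETS factors (CCGGAAG) was found at 16 members (33.3%), beside 11.2% and 19.8%. They included 1 of the 9 members bound in both lists and 9 of the 25 bound in neither.

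The other motifs are given beside all promoters and beside CpG-rich ones. The CCAAT box of NF-Y (CCAAT) was found at 17 members (35.4%, all promoters 38.6%, CpG-rich 36.5%). Those included 4 of the 9 members bound in both lists and 10 of the 25 bound in neither. The antioxidant response element (TGACNNNGC), which NFE2L1 and NFE2L2 bind, was found at 7 members (14.6%, all promoters 12.8%, CpG-rich 15.4%), 3 of the 9 bound in both lists and 1 of the 25 bound in neither. The TATA box (TATAAA) was found at 5 members (10.4%, all promoters 12.6%, CpG-rich 4.61%), with 2 of the 9 and 2 of the 25 among them. The GC box (GGGCGG) was found at 30 members (62.5%), beside 45.3% of all promoters and 77% of CpG-rich ones. Among them were 5 of the 9 and 15 of the 25. The core of the NRF1 motif (GCGCATGC) was found at 4 members (8.33%, all promoters 3.71%, CpG-rich 6.24%), with 0 of the 9 and 1 of the 25 among them. For every motif, the split by binding rests on few members. It was not made over all genes and was not tested. Of the motif matches in the printed runs, GC boxes overlap each other at Psmd1 and Psma4.

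Other genes of the ubiquitin-proteasome pathway, taken from a list of 23 of which 22 were found in the annotation, were counted in the same way. A promoter peak was present at 9 of 22 in replicate 1 (40.9%), at 14 in replicate 2 (63.6%) and at 8 in both (36.4%), beside 25%, 41.7% and 18.8% of the members and 15.7%, 30.4% and 12.0% of all genes. The difference was not tested, and the list was chosen with earlier results known. Usp14, a deubiquitinase that docks on the base, scored 132 and 98, above every member in both lists. Of the transcription factors that act on proteasome genes, Nfe2l1 scored 24 and 47 and Nfe2l2 scored 56 and 122. Ngly1, a deglycosylase that acts on NFE2L1, scored 49 and 40. Zfand5, which binds the proteasome, scored 68 and 87, and Txnl1, a thioredoxin bound to the regulatory particle, scored 21 and 34. The shuttle factor genes Rad23b and Ubqln4 scored 47 and 107, and 36 and 83. Pomp, the maturation factor of the core, and Adrm1, a ubiquitin receptor of the base, had a promoter peak in neither list, and Sem1, a small lid subunit, scored 30 in replicate 2 only.

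Genes of the ribosome, another large complex made in every cell, gave different shares by kind. Of 83 cytosolic ribosomal protein genes, 10.8% were bound in replicate 1, 26.5% in replicate 2 and 7.23% in both. Of 78 mitochondrial ribosomal protein genes, 23.1%, 50% and 17.9% were bound. The 93 ubiquitin protease and conjugating enzyme genes named Usp or Ube2 gave 28%, 47.3% and 22.6%. The proteasome genes lay above the cytosolic ribosomal genes and below the Usp and Ube2 genes in each of the 3 counts, and no test of these differences was made.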

How the data were processed

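CUT&Tag peaks of SRCAP-YPet in 2 samples of SYAT mESC, 1 group, were used as deposited, 1 list per sample with positions in mm10 and a score. The submitters' processing notes name STAR, Picard and MACS2 and the builds mm10 and dm6, without versions. The score that the authors deposited was read as 10 times −log10 q cut to a whole number, since its minimum of 13 matches a q-value of 0.05. The study's methods describe unique alignment, removal of duplicates, scaling by the Drosophila spike-in and a blacklist filter for ChIP-seq and CUT&Tag together. Which of these steps and which control library applied to these lists is not given in the sources used here, and 6 mitochondrial peaks in each list lie outside the chromosomes that those methods keep. Depth is unknown, so no interval was computed for peaks or scores.

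Peaks were overlapped with promoter windows of GENCODE mouse release 21 by code tested on simulated data. The representative TSS was that of the principal transcript with the best support. Sequence came from GRCm38, the assembly of mm10, and 40 of 48 members matched the RefSeq promoter table, 36 of them with a start within 100 bp. A gene's strongest promoter peak gave its score. The symbol rule for members, the classes, the pathway list, marker lists, families and motifs were chosen with earlier results of these data known. With 1 group, no test was made. Every member was named, with coordinates for its promoter peaks except that of Psmg2. Of the pathway list, genes bound in both lists were named, besides Pomp, Adrm1 and Sem1, which were chosen after their values were seen. Alternatives covered the window, the overlap rule, the transcripts, the score, equal list lengths, repeats, the members and their classes, and leaving out each replicate. The work used Python 3.11.15, pysam 0.24.0, samtools 1.23.1, statsmodels 0.14.6 and matplotlib 3.10.9.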

Additional observations from a re-analysis of the deposited data

How the results depend on the processing

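Of 89 values under alternatives to 9 results, 71 were counted as unmoved. Counts had to stay within 1.5 times the main count, distances within the spread between replicates, and the CpG-rich share within its binomial interval. Leaving out a replicate could not move the distance beyond that spread. Equal list lengths could not change replicate 1, the shorter list. With each list left out, the members counted in both replicates became the 12 to 20 of the list that remained, the core 6 to 7, the regulatory particle 3 to 9, the activators 1 to 2 and the assembly factors 1 to 3, and the median distance to the TSS ranged from 80 to 147 bp. Counting a peak only where it contained a TSS left 6 members in replicate 1 and 3 in both, with 2 in the core, 1 in the regulatory particle and 0 activators, and all genes at 9.73%, 20.6% and 6.97%. A minimum score of 50 left 2 members in replicate 1, 8 in replicate 2 and 0 in both, beside 4.21%, 13.1% and 2.99% of all genes. Bound in both at this score were 0 in the core, 0 in the regulatory particle and 0 activators. A minimum score of 20 left 0 activators in both, beside 11.1% of all genes, because Psme2 scored 19 in replicate 1. With only the TSS of the gene record, the median distance, 113.5 bp as the mean of both replicates, became 186 bp. In that setting 8 members were bound in both, without Psmb1, beside 10.4% of all genes. With lists of equal length, 15 members were bound in replicate 2, beside 19.2% of all genes. The 9 members of the main count were bound in both, beside 9.69% of all genes. Depth is unknown, so the absence of a peak at a member does not show that SRCAP was absent there.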

Other observations

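Outside the promoter windows, 3 members had peaks within the gene. Psme4, the activator PA200 that had no promoter peak, held 1 peak in each list at the same place, with a score of 34 in replicate 1 (chr11:30785426-30785676) and 62 in replicate 2 (chr11:30785451-30785970), 13105 and 13130 bp from its nearest TSS. Psma2 held a second peak in replicate 2, with a score of 93 (chr13:14630249-14630654), above the 85 of its promoter peak. Psmd9 held 1 with a score of 13 in replicate 2, the lowest score in that list.

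Of 6 genes whose symbols begin like those of the members but go on after the digits, Psmc3ip, a protein of meiotic recombination, had a promoter peak with a score of 40 in replicate 2 only. Psme2b and the 4 pseudogenes Psmb5-ps, Psmb6-ps, Psmb6-ps2 and Psmb7-ps2 had none in either list.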
